A study of Mus musculus with 444 samples.

Results

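Basal cells, also called myoepithelial cells, were picked out of the pubertal mammary epithelium by their marker genes, and 54 such cells were found among the 221 pubertal and 444 total cells of the series. The epithelium came from FVB/NJ mice, an inbred strain, at puberty and in adulthood. Age is given as 4 weeks for the pubertal and 10 weeks for the adult cells in the deposited file names. The study's methods state a somewhat older age for the pubertal mice, and which age holds for these cells is not known. Cells lacking the blood and vessel surface proteins CD31, CD45 and Ter119 were sorted from glands of several mice pooled together, captured singly on the Fluidigm C1 microfluidic device and sequenced from polyadenylated RNA. No group carried an altered allele or a treatment. The study describes independent experiments, but the labels name no experiment, animal, litter or capture. The cells of a stage are therefore handled as 1 sample, nothing here has a replicate check, and no test was run over cells.

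Basal cells form the outer layer of the mammary ducts. They lie on the basement membrane, hold smooth muscle proteins, and contract in response to oxytocin to expel milk. Inside them are the luminal cells, which comprise hormone-sensing mature cells and progenitors of the milk-producing lineage. At puberty the ducts elongate through the fat pad and the basal layer extends with them.

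A pubertal cell was taken if it had at least 100000 read pairs and 1500 genes, if at least 3 of 8 basal genes reached 50 CPM (read pairs of a gene scaled to a common library total), and if this count exceeded the counts of 8 mature luminal and 8 luminal progenitor genes. Of 171 cells with enough reads, 54 (31.6%, exact Clopper-Pearson 95% interval 24.7 to 39.1%) met the rule. The other 117 were 82 mature luminal-type cells, 16 progenitor-type cells and 19 cells that met no type's rule. All intervals cover counting error only. The 54 cells had a median of 6 of the 8 basal genes, with 4 cells just inside the limit at 3 genes and 6 cells at all 8. A further 17 pubertal cells also had 3 or more basal genes but were left out, 12 because a luminal count was higher and 5 because it was equal. Another 6 cells stopped at 2 basal genes.

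Depth was similar in the basal cells and the rest. The basal cells held 101471 to 1354378 read pairs, with a median of 360859, against a median of 292417 in the other cells. After every cell was thinned to 100000 read pairs, a median of 2809.5 genes was detected in a basal cell and 2818 in another cell. The basal cells were unevenly spread over the cell numbers in the sample titles. They made up 10 of the 49 cells with enough reads numbered 1 to 55, 10 of 47 numbered 56 to 110, 23 of 48 numbered 111 to 165 and 11 of 27 numbered 166 to 221. What these numbers stand for is not given, and their part in the results was not tested.

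The label held for genes that the rule did not use. Of 12 further basal markers, 9 were higher in the basal cells than in the other pubertal cells. Here and below, higher or lower by the call means at least 4-fold in summed CPM at equal depth, with a share of detecting cells at least 20 percentage points apart in the same direction. Of all 7853 genes compared, 2.02% were higher and 0.573% lower. These are descriptions, since the same cells were chosen for their basal genes. Krt5, a keratin of basal layers, stood at 143 CPM in basal and 30.1 CPM in other cells, with a read in 39 of 54 and 18 of 117 cells. Trp63, the transcription factor that specifies stratified and basal epithelium, stood at 183 CPM against 42.7 CPM and was detected in 29 basal and 10 other cells. Tpm2 and Lmod1, both smooth muscle genes, were 1.70 and 1.08 higher on the log2 scale and missed the call. Itgb4, a hemidesmosome integrin, went the other way, at 5.19 CPM in basal and 28.0 CPM in other cells. Its gene overlaps others in the annotation and its count is uncertain. The same holds for Actg2 and Id4, which were among the higher markers.

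**Figure D1:**
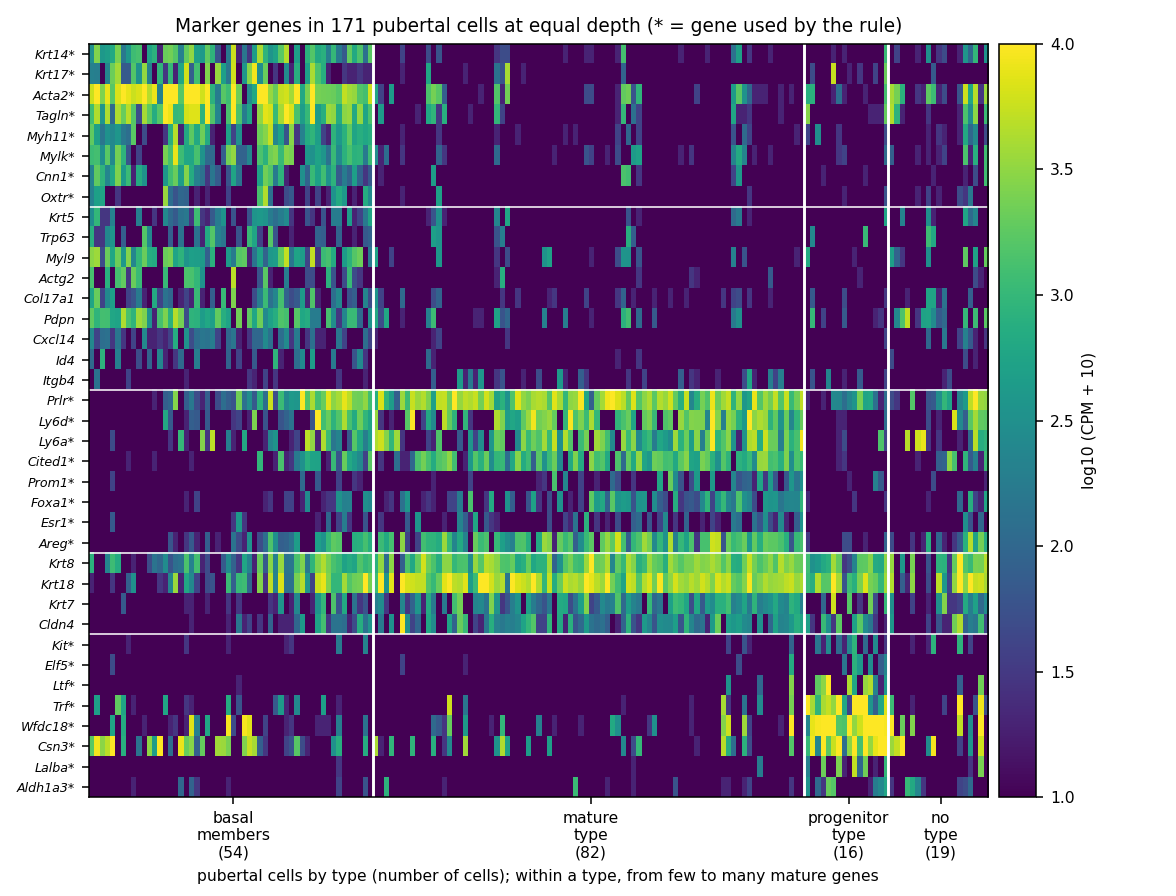
Each column is 1 of 171 pubertal cells, grouped by type, each row is a marker gene, and the colour gives its level at equal depth as log10 of CPM with 10 added. The basal block holds the smooth muscle and basal keratin rows, and its cells with many mature genes, at the right of the block, also fill the luminal rows.

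The 8 genes of the rule varied widely from cell to cell. Acta2, smooth muscle actin, had the highest level of them per kilobase of transcript, at 3885 RPKM (CPM divided by the gene length in kilobases), followed by Tagln, an actin-binding protein, at 2300.0 RPKM. In single cells Acta2 ranged from 0 to 31900 CPM around a median of 4935 CPM, and it was read in 53 of the 54 cells. Tagln, whose count may include reads of the overlapping Pcsk7, ranged from 0 to 17510 CPM with a median of 1600.0 CPM. Each cell held a read of at least 1 of these 2 genes. Krt14, the keratin used most often to mark the basal layer, ranged from 0 to 5790 CPM with a median of 605 CPM, and had a read in 50 cells. The smooth muscle myosin gene Myh11 and the myosin light chain kinase gene Mylk had medians of 385 and 560.0 CPM, and both were read in 45 cells. Oxtr, the receptor through which oxytocin triggers contraction, was read in only 26 of the 54 cells (48.1%) and had a median of 0. A single cell held 32.6% of all its reads, with 4370 CPM. In the other pubertal cells the medians of all 8 genes were 0.

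Part of the contractile genes outside the rule were higher as well. Of 16 further contractile genes compared, 6 were higher in the basal cells and 0 lower, and their median log2 ratio was 1.93 against -0.04 for all genes. The promoters of Acta2 and Myl9 are shown because CArG boxes, the sites of serum response factor, are a known feature of smooth muscle promoters. A CArG box was searched on both strands as CCNNNNNNGG in which the 6 middle letters are A or T, with at most 1 exception. Both promoters run 5′ to 3′ along the gene, from 250 bases before to 50 bases after the RefSeq start in GRCm38.p6, with the matches in capitals. Acta2 lies at chr19:34255324-34255623 on the minus strand and Myl9 at chr2:156775214-156775513 on the plus strand.
Acta2: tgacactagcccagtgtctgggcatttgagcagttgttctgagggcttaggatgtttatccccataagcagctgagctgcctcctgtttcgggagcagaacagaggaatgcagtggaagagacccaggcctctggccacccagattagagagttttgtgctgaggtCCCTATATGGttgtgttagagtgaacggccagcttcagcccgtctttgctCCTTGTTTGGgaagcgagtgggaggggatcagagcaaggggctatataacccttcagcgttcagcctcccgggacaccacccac
Myl9: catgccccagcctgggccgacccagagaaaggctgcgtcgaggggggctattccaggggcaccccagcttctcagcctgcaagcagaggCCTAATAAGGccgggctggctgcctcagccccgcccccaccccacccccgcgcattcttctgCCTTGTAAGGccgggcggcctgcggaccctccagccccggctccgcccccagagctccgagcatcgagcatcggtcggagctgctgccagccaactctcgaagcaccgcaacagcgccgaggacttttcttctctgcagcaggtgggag
The matches begin 84 and 34 bases before the start in Acta2, and 161 and 99 bases before it in Myl9. Of 22 contractile genes looked up, with those of the rule, 17 had a promoter in the table, and Actg2, Myh11, Nexn, Tagln and Tgfb1i1 had none. A gene was counted if any of its promoters held a match. A match was present in 3 of these 17 genes (17.6%), Acta2, Myl6 and Myl9, and in 11.3% of all 27025 genes with a promoter. With no exception allowed, it was present in 2 of 17 (11.8%), Myl6 and Myl9, and in 1.81% of all. A match is a description of the sequence and not an occupied site.

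Myl9, a regulatory light chain of myosin, stood at 1021 CPM in the basal cells and 74.8 CPM in the other cells. It ranged from 0 to 5350 CPM over the basal cells with a median of 525 CPM, and was read in 49 of 54 against 24 of 117 cells. The enteric smooth muscle actin Actg2 was present in a part of the basal cells, in 25 of 54, at up to 4880 CPM and with a median of 0. It was read in 9 of the other cells, and the summed levels were 416 and 7.95 CPM. Tgfb1i1, which encodes the focal adhesion protein Hic-5, stood at 250 CPM against 5.73 CPM and was read in 30 basal and 4 other cells. Pdlim3, a partner of alpha-actinin, had the highest log2 ratio by the naming rule, 5.96, with 120.0 CPM in 16 basal cells and 0.940 CPM in 2 others. Smtn, Palld and Flna, 3 further actin-binding genes, were also higher by the call. Tpm1 and Cald1, which bind actin filaments in many cell types, missed the call at 1.79 and 1.99 on the log2 scale. Of 17 genes that carry the contraction signal, among them the calmodulins and the G proteins downstream of the oxytocin receptor, 0 were higher and 0 lower, with a median log2 ratio of 0.67.

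Each basal cell expressed a sizeable part of the contractile list. Between 6 and 14 of 17 genes were read in a basal cell at equal depth, with a median of 10.5, against a median of 5 in the other cells. Actg2 and Trp63 were both read in 8 cells. Actg2 was found in 8 of 29 cells with a Trp63 read (27.6%) and in 17 of the 25 cells without one (68.0%). Oxtr and Actg2 shared 14 cells, among 26 with Oxtr and 25 with Actg2. With 1 sample these counts describe the cells at hand, and shallow libraries miss reads of low genes.

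The basement membrane, the sheet of collagen IV and laminin under the basal layer, was represented by collagens and by chains of several laminins. Of 15 basement membrane genes, 8 were higher in the basal cells and 0 lower, with a median log2 ratio of 2.10. Col4a1 was read in 53 of 54 basal cells, ranged from 0 to 3770 CPM with a median of 970.0 CPM, and summed to 1184 CPM against 219 CPM in the other cells. Its head-to-head neighbour Col4a2 stood at 955 CPM against 143 CPM, and the annotation of these genes overlaps, so that reads between them are uncertain. Lamc1, the gamma chain of most laminins, stood at 245 CPM against 27.6 CPM. Lama1 and Lama3, alpha chains of laminin-111 and laminin-332, stood at 223 and 162 CPM against 33.5 and 14.1 CPM. Col18a1, the precursor of endostatin, stood at 262 CPM against 21.2 CPM. Lama5 and Lama4 had lower levels in the basal than in the other cells, 56.3 against 262 CPM and 1.85 against 45.6 CPM, and neither met the call.

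Of 13 adhesion and basal keratin genes, 5 were higher in the basal cells and 0 lower. Col17a1, the hemidesmosome collagen, was read in 40 of 54 cells and summed to 281 CPM against 20.6 CPM. P-cadherin (Cdh3), an adhesion protein of basal layers, stood at 80.0 CPM in 22 basal cells and 10.1 CPM in 8 others, but a single cell held 59.3% of its basal reads. Itga6 and Itgb1, the integrin subunits used as surface markers to sort basal cells, were read in 46 and 48 of the basal cells and in 85 and 102 of the other cells. Their log2 ratios of 1.08 and 0.90 missed the call.

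Among 12 transcription factors linked to basal identity, 3 were higher and 0 lower. Besides Trp63 these were Snai2, the repressor Slug, at 191 CPM in 23 basal cells against 20.1 CPM in 12 others, and Id4, an inhibitor of helix-loop-helix factors, at 77.8 CPM in 22 basal cells against 1.97 CPM in 7 others. Sox9 was read in 50 basal cells but at a lower summed level than in the other cells, 659 against 1509 CPM. Sox10 was level, at 34.4 and 35.5 CPM. Srf, the factor that binds CArG boxes, was also level, at 50.7 and 58.9 CPM, and its smooth muscle cofactor Myocd had reads in 1 basal and 1 other cell.

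Several secreted proteins were higher in the basal cells. Of 14 genes on this list, 4 were higher and 1 lower. Apoe, the lipid carrier, was read in every one of the 54 basal cells, from 10 to 12710 CPM with a median of 895 CPM, and in 39 of the 117 others. Igfbp3 and Igfbp2, which bind insulin-like growth factors, stood at 199 and 57.2 CPM against 5.30 and 2.05 CPM, and the chemokine Cxcl14 at 84.3 CPM against 5.64 CPM. The lower gene was Il33, an alarmin cytokine, at 208 CPM against 1482 CPM.

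In the Wnt pathway the higher genes were inhibitors. Of 10 genes compared, 2 were higher, the secreted Wnt antagonist Wif1 at 112 CPM against 11.2 CPM and the Dickkopf family member Dkk3 at 96.5 CPM against 4.02 CPM, and 0 were lower. Dact3, an intracellular Wnt antagonist taken by the naming rule, stood at 33.1 CPM in 15 basal cells against 0.256 CPM in 3 others. Lgr4, a receptor for R-spondins, was read in 53 basal cells at a summed 1489 CPM against 387 CPM and missed the call at 1.94. The stem cell marker Lgr5 was read in 5 basal cells. The ligand Wnt5a was lower in level, 103 against 518 CPM, and missed the call.

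For the other ligands and receptors the counts were low. Of 5 Notch genes compared 1 was higher, the ligand Dll1, at 116 CPM in 22 basal cells against 5.81 CPM in 10 others. Jag1, another Notch ligand, was near level, at 955 and 848 CPM. Of 11 genes of the TGF-beta and BMP pathways 1 was higher, the coreceptor Tgfbr3, at 1258 CPM against 274 CPM, while Tgfbr2 was at 14.6 CPM against 125 CPM. Of 8 ErbB and FGF genes outside the rule 0 met the call in either direction. Nrg1, the ligand of ErbB3 and ErbB4, was read in 50 of 54 basal and 62 of 117 other cells, with 1910 against 614 CPM, a log2 ratio of 1.64.

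The study listed 17 genes as examples for a basal cluster of mainly pubertal cells and not for its basal cluster of mainly adult cells. Of 16 that could be compared 9 were higher here and 0 lower, but the study chose them on cells of this series, so the count is no independent evidence. Longer lists of 189 basal and 184 luminal genes, which the study took from earlier work on sorted populations, gave 44 of 112 basal genes higher and 0 lower, and 0 of 115 luminal genes higher and 13 lower. The 12 genes that the naming rule took as highest spanned log2 ratios of 4.14 to 5.96. All 12 were higher by the call against the mature luminal-type cells, where 2.95% of all genes were, and against the progenitor-type cells, where 7.7% were. These types are 82 and 16 of the 117 other cells on which the genes were chosen, so the counts largely follow from that choice and add no evidence. With Pdlim3, Actg2, Tgfb1i1, Igfbp3, Id4, Dkk3, Igfbp2 and Dact3, described above, the 12 genes were Rtn1, a reticulon of the endoplasmic reticulum, Vwa1, a matrix protein of basement membranes, Capn6, a calpain without protease activity, and Edaradd, the adaptor of the ectodysplasin receptor.

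**Figure D2:**
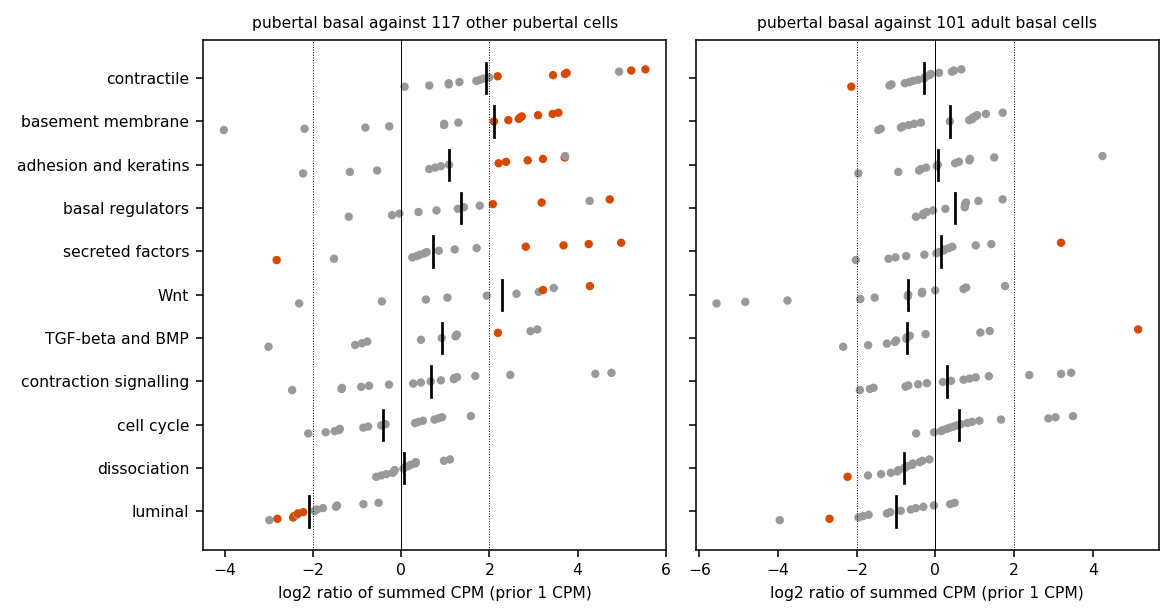
Points are genes of each list, with the log2 ratio of summed CPM on the x axis, for the pubertal basal cells against the other pubertal cells and against adult basal cells. Coloured points met the call, black bars are medians and dotted lines mark 4-fold. The contractile and basement membrane lists lie to the right in the first comparison, with medians of 1.93 and 2.10, and around 0 in the second, with medians of -0.28 and 0.37.

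In the basal cells 45 genes were lower and 159 higher, an order that turned to 212 lower and 197 higher with the cells of 2 or fewer mature luminal genes, and to 378 and 236 with the 20 cells of at most 1 mature and 1 progenitor gene. Both settings pick cells by their few luminal genes, so a rise in lower genes is built into them. Of 14 general luminal markers 5 were lower, Krt7, Cldn3, Cldn4, Cldn7 and Ehf, and the median log2 ratio was -2.10. The simple keratins Krt8 and Krt18 were still read in 46 and 41 of the 54 basal cells. They summed to 723 and 1354 CPM, against 1992 and 4651 CPM in the other cells. Reads of a basal keratin were found in 53 basal cells and reads of a luminal keratin in 48. Smim31, a small membrane protein gene, had 0 reads in the 54 basal cells at equal depth, which on a floor of 3 cells allows a share of up to 5.56%, and 65.0 CPM in 42 of the other cells, so it was at least 117-fold lower on a floor of 3 reads over the basal cells. Sqor, a mitochondrial sulfide oxidase, had 3 reads in the basal cells and 1091 in the others, a ratio of 168 with an exact counting interval of 57.3 to 815. Plet1, a surface protein of luminal progenitors, stood at 23.3 CPM against 360 CPM, and the serine proteases Tmprss2 and Tmprss13 at 18.3 and 73.3 CPM against 218 and 792 CPM. The adult basal cells, compared below, were not low in Plet1, with reads in 70 of 101 cells and 475 CPM. The remaining lower genes of the naming rule were Plaat3, Psmb9, Rab3ip, Gm20016, Rab11fip1, Parp9 and Arrdc1. All 12 lower genes of the naming rule were lower by the call against the mature luminal-type cells, where 1.47% of all genes were. Against the progenitor-type cells 5 were at least 4-fold lower, but only Plet1, Rab11fip1 and Tmprss13 met the call, where 1.79% of all genes did. The mature luminal-type cells are 82 of the 117 other cells, so the first count largely follows from the choice of the genes.

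The number of lower genes rose when the basal cells that also carried luminal transcripts were left out. Of the 54 cells, 22 (40.7%, 27.6 to 55.0%) had 3 or more of the 8 mature luminal genes at 50 CPM, and 32 had 0 to 2, among them 14 with 0. This division was made after the values were seen. When only the 32 cells were used, 212 genes were lower than in the other pubertal cells, 42 of them among the 45. The 32 were chosen for few mature luminal genes and set against mostly mature luminal-type cells, so a rise is built into the choice. The count also rose, to 84, when cells with fibroblast or pericyte markers were left out. That setting removed cells from both sides, leaving 42 basal and 102 other pubertal cells, and the reason for its rise was not tested. In adult basal cells chosen by the same rule, 19 of 101 (18.8%, 11.7 to 27.8%) had 3 or more mature genes, with 17.1% among adult cells numbered 48 to 188 in their titles and 26.3% (9.15 to 51.2%) among the others. In the reverse direction 11 of the 82 pubertal mature luminal-type cells (13.4%) had 3 or more basal genes.

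Of 16 contractile genes, 1 was higher and 0 were lower by the call in the 22 cells than in the 32, with a median log2 ratio of -0.12 against -0.16 for all genes. The higher one was Synpo2, an actin-binding protein, at 70.5 against 6.25 CPM. Single genes lay on either side. Acta2 stood at 5404 CPM in the 22 cells and 7954 CPM in the 32, Actg2 at 184 and 575 CPM, and Smtn at 66.4 and 261 CPM, while Myh11 stood at 1045 and 549 CPM. Tagln stood at 3795 and 3547 CPM, Myl9 at 1055 and 997 CPM, and Krt14 at 1079 and 1027 CPM. Of the 11 further basal markers compared, 0 were higher and 0 lower. Of the 126 genes of the long basal list, 1 was higher and 7 were lower, and their median log2 ratio was -0.87. Of 13 basal transcription factors, 0 were higher and 1 was lower, Lmo1, with a median of -1.36. Against this, 9 of 13 general luminal markers and 44 of 93 genes of the long luminal list were higher in the 22 cells, when 4.29% of 7580 genes were higher and 1.81% lower. The split itself used 8 luminal genes of the same cells, so these counts are descriptions. Krt18 was read in all 22 cells at a median of 2375 CPM, and in 19 of the 32 at a median of 15 CPM. Krt19 was read in all 22 at a median of 1480 CPM and in 11 of the 32 with a median of 0. Cldn4, a tight junction protein, was read in 18 and 5 cells, and the cytokine Il33 in 14 and 8 cells, with summed levels of 497 and 8.75 CPM. Upk3a, a uroplakin of urinary tract epithelium, and Crym, a thyroid hormone-binding protein, were read in 11 and 13 of the 22 cells and in 0 of the 32, which on the same floor of 3 cells allows a share of up to 9.38%.

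**Figure D3:**
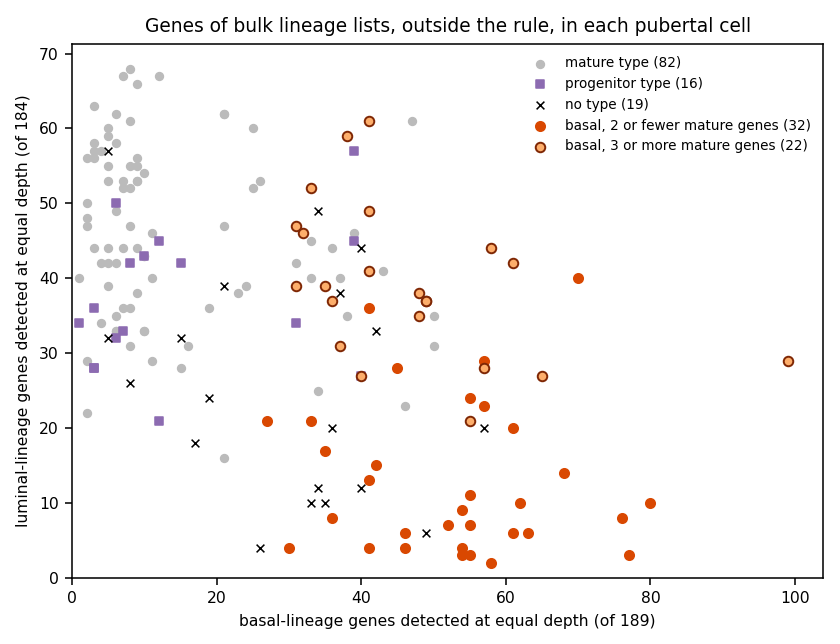
Each point is a pubertal cell, with the number of basal-lineage genes read at equal depth on the x axis and of luminal-lineage genes on the y axis. The basal cells with 3 or more mature genes lie between the other groups, with medians of 41 basal and 38.5 luminal genes, against 54.5 and 9.5 in the other basal cells and 8.5 and 44.5 in mature luminal-type cells.

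Genes lower in the 22 cells than in the 32 included Mest, an imprinted gene of growing tissues, with reads in 3 and 16 cells and 2.73 against 352 CPM. Csn3, a casein gene that the rule counted as a progenitor gene, stood at 165 against 2949 CPM, and was read in 10 and 22 cells. Igfbp4, Serpinb11, Sema6d and Egfr were also lower by the call. The pubertal basal ligand gene Nrg1 stood at 913 against 2596 CPM and missed the call.

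Depth moved with this division. The 22 cells had a median of 245935 read pairs and the 32 a median of 586948. Cells with 3 or more mature genes were 6 of the 9 basal cells under 200000 read pairs, 11 of the 20 from 200000 to 400000, and 5 of the 25 at 400000 or more. At equal depth a median of 2912 genes was read in the 22 cells and 2765 in the 32. Of the 22 cells, 14 had title numbers 111 to 165. Across the 54 cells the number of luminal-lineage genes correlated with the read pairs before thinning with a Spearman coefficient of -0.45 and with the basal-lineage genes at -0.32, as a description over cells of 1 sample that share libraries and depth. The study states that capture sites were inspected to hold 1 cell each, and no doublet caller was run here. The part of depth and of title number in this division was not tested.

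**Figure D4:**
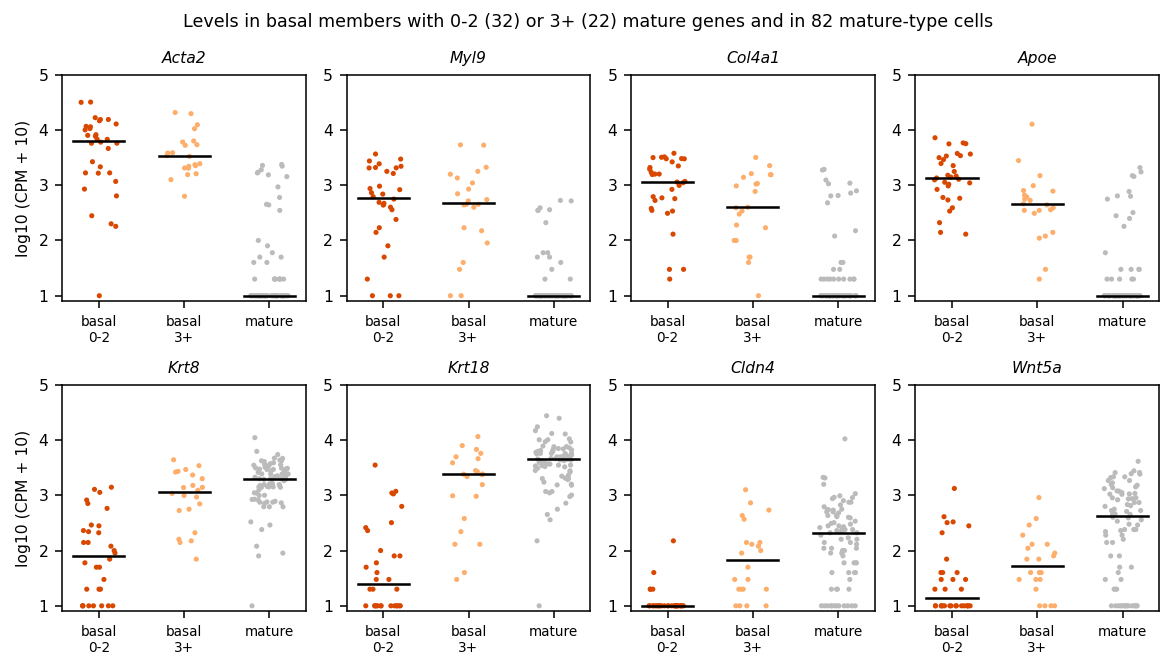
Each panel shows 1 gene, with points for single cells at equal depth, in basal cells with 0 to 2 mature genes, basal cells with 3 or more, and mature luminal-type cells, as log10 of CPM with 10 added, and black bars at the medians. The points of Acta2 overlap between the basal groups, with medians of 6375 CPM at 0 to 2 mature genes and 3360 CPM at 3 or more, while Krt18 has medians of 15 and 2375 CPM.

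Markers of stromal cells were present in part of the basal cells. At least 3 of 8 fibroblast markers were read in 10 of the 54 cells and in 11 of the 117 others, and their summed level ranged from 0 to 18480 CPM in basal cells and from 0 to 41120 CPM in the others. At least 3 of 8 markers of pericytes or vascular smooth muscle were read in 4 basal cells, with a summed level of 0 to 1260 CPM, and in 4 of the 117 others, with 0 to 970 CPM. Rgs5 and Cspg4, which define pericytes, had 0 reads in the basal cells, and Mcam was read in 13, Notch3 in 12, Pdgfrb in 9, Abcc9 in 5, Kcnj8 in 3 and Des in 1 of them. At least 3 of 7 endothelial markers were read in 5 basal cells, with a summed level of 0 to 1980 CPM, and in 3 of the others, with 0 to 4500 CPM. The pan-leukocyte gene Ptprc had 0 reads. In all, 13 basal cells had 3 or more markers of any of these types. All 13 also held a read of Krt14, Krt5 or Krt17, and 12 held a read of Epcam. Without cells carrying fibroblast, pericyte or endothelial markers, 132 of the 159 higher and 41 of the 45 lower genes remained.

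At least 6 of 18 cell cycle genes were read in 15 of 54 basal cells (27.8%, 16.5 to 41.6%), 33 of 117 other pubertal cells (28.2%, 20.3 to 37.3%) and 21 of 101 adult basal cells (20.8%, 13.4 to 30.0%). The adult share was 23.2% among cells numbered 48 to 188 in their titles and 10.5% among the others. Mki67 and Top2a, which mark cells between S phase and mitosis, were read together in 13 basal cells (24.1%). Of 16 cell cycle genes, 0 were higher and 0 lower against the other pubertal cells. Against adult basal cells 0 passed the call, 14 of 16 had log2 ratios above 0, and the median was 0.60.

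The adult basal cells, 101 of 152 adult cells with enough reads, were the nearest group to compare. The basal share was 66.4% (58.3 to 73.9%) in the adult and 31.6% at puberty. Adult cells numbered 48 to 188 in their titles form a run in which nearly every cell had reads of the small nuclear RNA Rn7sk. The limits of the run were set by these reads, so the values of Rn7sk inside and outside it follow from that choice. The basal share was 76.6% within the run and 42.2% (27.7 to 57.8%) outside it. Stage cannot be told apart from sort and capture, and values for the run (82 basal cells) and for the rest (19) are given beside the genes the results turn on. Of 7642 genes, 75 (0.981%) were higher and 85 (1.11%) lower at puberty. The shares were 1.49% and 1.7% against the run and 5.21% and 1.51% against the rest.

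Few genes of the basal lists met the call between the stages, but only 0.981% of all genes were higher and 1.11% lower. The low counts are therefore no trait of these lists. Of 15 basement membrane genes 0 were higher and 0 lower, with a median log2 ratio of puberty over adult of 0.37, against 0.07 for all genes. Of 16 contractile genes 0 were higher and 1 lower, Lmod1, a leiomodin of smooth muscle filaments, at 20.9 against 95.4 CPM, with 96.5 CPM in the run and 91.1 CPM in the rest. Acta2 stood at 6915 CPM at puberty and 8111 CPM in the adult, Mylk at 956 and 839 CPM, and Oxtr at 248 and 274 CPM, although Oxtr had reads in 26 of 54 pubertal and 76 of 101 adult cells. Krt14 stood at 1048 and 2857 CPM and Krt17 at 1054 and 2773 CPM, both under 4-fold. Adult levels differed between the run and the rest, at 3108 and 1776 CPM for Krt14, 3233 and 790.0 CPM for Krt17, 635 and 1719 CPM for Mylk, 188 and 645 CPM for Oxtr, and 8044 and 8402 CPM for Acta2. The log2 ratio of Krt17 was -1.62 against the run and 0.42 against the rest. Of 12 basal transcription factors 0 were called in either direction.

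Mest led the genes higher at puberty by the naming rule. Its count may take in the overlapping Copg2. It was read in 19 of 54 pubertal and 5 of 101 adult basal cells, at 209 against 4.06 CPM, a log2 ratio of 5.38. The ratio was 6.28 against the run and 3.79 against the rest. Adam23, a disintegrin without protease activity, was read in 19 pubertal cells and 1 adult cell, at 98.0 against 2.97 CPM. Tet1, a methylcytosine dioxygenase, was read in 16 and 6 cells, at 66.1 against 2.08 CPM. Capn6 stood at 153 against 7.13 CPM, Mfap2, a protein of elastic microfibrils, at 154 against 7.23 CPM, and the host RNA of microRNA-99a, Mir99ahg, at 90.7 against 4.06 CPM. For 2 genes the adult reads were too few for a fitted ratio. St3gal4, a sialyltransferase, had 169 reads at puberty and 1 in the adult, a ratio of 316 (56.0 to 12558), and Dnajc12, a cochaperone, had 271 and 3, a ratio of 169 (57.2 to 824). All 8 genes were at least 4-fold higher against the run and against the rest. Capn6 and Mfap2 missed the call against the rest, where 5.21% of all genes were higher by it. The run and the rest are parts of the adult cells on which the genes were chosen, so these counts largely follow from that choice and add no evidence. Dnajc12 was read in 11 of the 22 basal cells with mature genes and in 6 of the 32 others, at 117 against 4.37 CPM, while Mest, Adam23 and Capn6 had the higher sums in the 32. Mest, Adam23, Tet1, Capn6 and Mir99ahg were also higher by the call than in the other pubertal cells. Mfap2, St3gal4 and Dnajc12 were not. In those cells Mfap2 stood at 90.7 CPM, St3gal4 at 12.2 CPM, and Dnajc12 at 67.8 CPM against 50.2 CPM in the basal cells.

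Nrg1 was higher by the call in the stage comparison, at 1910 CPM in pubertal and 181 CPM in adult basal cells, and was read in 50 of 54 and 65 of 101 cells. Its log2 ratio was 3.39, with 3.98 against the run and 2.10 against the rest, where the call was lost. Adamts18, a metalloprotease, was the other higher gene among the 17 that the study listed for its mainly pubertal basal cluster, of which 0 were lower and the median was 0.95. These genes were chosen on cells of this series. Inhba, the activin A subunit, was read in 13 pubertal cells and 1 adult cell, at 41.7 against 0.198 CPM. Its pubertal reads gave 94.1 CPM in the 22 cells with mature genes and 5.63 CPM in the 32 others, and the call was lost against the rest. Il33 was at 208 against 21.8 CPM, with 26.1 CPM in the run and 3.16 CPM in the rest, and most of its pubertal reads lay in the 22 cells with mature genes.

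**Figure D5:**
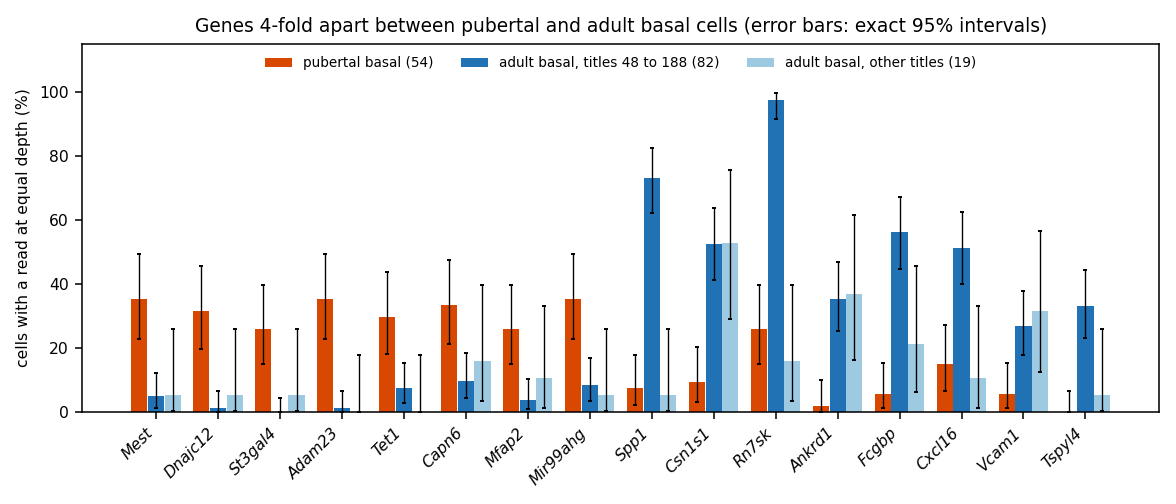
Bars give the share of cells with a read at equal depth for genes 4-fold apart, in pubertal basal cells (54), adult basal cells of the run (82) and the other adult basal cells (19), with exact 95% binomial intervals. The pubertal bars are the highest for the genes from Mest to Mir99ahg. Rn7sk is high in the run alone, which was chosen by its reads.

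Some milk protein genes were among those lower at puberty, with 2 of the 3 compared past the call and 0 higher. Against the run 1 of 3 was past the call, and against the rest 3 of 3 were. The casein gene Csn3 was left out of this count because the rule used it, and its stage difference was not tested. The count therefore does not speak for Csn3, whose adult level is not given here. Csn3 was not near 0 in the pubertal basal cells. It stood at 2949 CPM in those with 2 or fewer mature genes, with reads in 22 cells. In those with 3 or more it stood at 165 CPM, with reads in 10 cells. Csn1s1, a casein, stood at 4.07 CPM in pubertal and 978 CPM in adult basal cells, with 1009 CPM in the run and 841 CPM in the rest, where 1 cell held 81.0% of the reads and the other cells stood at 168 CPM. Csn1s2a had 0 reads at puberty and 455 CPM in 26 adult cells, so it was at least 818-fold lower. A single adult cell held 63.7% of the Csn1s2a reads, and the level without it was 167 CPM. In the run Csn1s2a stood at 374 CPM, where 1 cell held 95.4% of the reads and the other cells stood at 17.3 CPM. In the rest it stood at 803 CPM, where 1 cell held 80.7% and the other cells stood at 164 CPM. Spp1, the milk and matrix protein osteopontin, stood at 5.00 against 1329 CPM, with reads in 4 of 54 and 61 of 101 cells, but the adult level was 1627 CPM in the run and 41.1 CPM in the rest, where 1 cell held all of it. Vcam1, an adhesion molecule, stood at 2.22 against 78.3 CPM, with 94.6 CPM in the run and 7.89 CPM in the rest. Cxcl16, a chemokine, stood at 3.70 against 119 CPM, with 145 and 4.21 CPM. Fcgbp, a mucin-like protein, stood at 5.19 against 166 CPM, with 196 and 37.9 CPM. The log2 ratio against the rest was -1.46 for Vcam1 and -0.15 for Cxcl16, and neither passed the call there. Ankrd1, a target of YAP signalling, had 1 read at puberty and 361 in the adult, a ratio of 193 (34.4 to 7644), with 35.7 CPM in the run and 35.8 CPM in the rest. Tspyl4 had 0 reads at puberty and 23.3 CPM in 28 adult cells, at least 41.9-fold lower, with 28.2 CPM in the run and 2.11 CPM in the rest. Rn7sk stood at 20.9 against 727 CPM, but at 4.74 CPM in the adult cells outside the run, where the log2 ratio turned to 1.93. Since the run was chosen by its Rn7sk reads, this split is no finding about Rn7sk. Of the 8 genes, Rn7sk included, all 8 were at least 4-fold lower against the run. Against the rest 7 had the same direction, all but Rn7sk, and 4 were at least 4-fold lower. Of these only Csn1s1 and Ankrd1 met the call there, where 1.51% of all genes were lower by it. Both parts hold the adult cells on which the genes were chosen, so these counts largely follow from that choice. Of all 75 higher and 85 lower genes, 37 and 16 kept the call against the rest alone.

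Of 14 genes that respond to tissue dissociation, 0 were higher and 1 was lower by the call at puberty, Hspa1a, which has a near-identical copy in Hspa1b and stood at 153 CPM in the run and 18.9 CPM in the rest, against 26.5 CPM at puberty, so that its direction turned in the rest. All 14, among them Fos, Egr1 and Hsp90aa1, had log2 ratios of puberty over adult below 0 over all adult basal cells, 12 of 14 did against the run and 11 of 14 against the rest. Their median was -0.79, -0.71 and -0.75 in these comparisons, against 0.07 for all genes in the first. Their part in the stage differences was not tested. At least 3 fibroblast markers were read in 10 of 54 pubertal and 8 of 101 adult basal cells, and at least 3 endothelial markers in 5 and 0. Their part was not tested either, but 46 of the 75 higher and 72 of the 85 lower genes kept the call without these cells. With basal cells of 2 or fewer mature genes in both stages, 43 of the 75 and 68 of the 85 kept it.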

How the data were processed

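For 444 single cells (221 pubertal, 223 adult) the authors deposited unnormalized counts, read pairs per gene, made with Subread and featureCounts on mm10 and the RefSeq annotation built into Rsubread. Tool versions and strand use are not given in the sources used here, so counts of overlapping genes and near-identical copies are uncertain. The C1 protocol has no molecular identifiers. A combined table with the same counts was not used.

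Of 27179 identifiers 25275 matched a current gene, the unmatched held 1.84% of the read pairs, and 15 mitochondrial and 124 ribosomal protein genes were dropped. Cells that passed were thinned to 100000 read pairs (seed 1), the cells of a set were summed, and log2 ratios took a prior of 1 CPM. Genes reaching 20 CPM in 1 set were compared, without the 24 genes of the rule. No doublet caller was run. Cell types were rebuilt from markers, so they need not match the published ones. The limits on read pairs and genes follow the methods, yet fewer cells met them here. The basal cells and gene lists were chosen with earlier results of these data known.

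Named genes were the 12 highest and 12 lowest by log2 ratio against other pubertal cells, and the 8 highest and 8 lowest against adult basal cells, among called genes read in 25% or more of the cells of the higher set with no cell holding 50% of its sum. Genes of the lists and of the rule, the 8 genes of highest CPM and the 8 most correlated with the contractile count could also be named. Shares carry exact Clopper-Pearson intervals and ratios on 1 to 3 reads an exact binomial counting interval, at the 95% level. Scripts ran in Python 3.11.15 with numpy 2.4.6, scipy 1.17.1 and pandas 2.3.3. TMM factors came from edgeR 4.0.16 in R 4.3.3. The comparison was tested on simulated data. Alternatives were unthinned sums, a prior of 10 CPM, TMM factors, no filter on low genes, leaving out the highest cell of each gene, and other choices of cells.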

Additional observations from a re-analysis of the deposited data

How the results depend on the processing

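The basal share of pubertal cells was 29.2 to 32.6% under 6 other marker or depth limits. The share of basal cells with 3 or more mature genes was 29.5 to 53.7% under 5 alternatives chosen after seeing the data. The number of genes higher than in other pubertal cells stayed within 1.5 times under every alternative run, at 115 to 236. The number of lower genes, 45, became 81 with unthinned sums, 69 without the highest cell of each gene, 84 without cells with fibroblast or pericyte markers, 86 without endothelial markers as well, 83 against cells with a leading luminal count alone, 212 with basal cells of 2 or fewer mature genes, and 378 with the 20 cells of at most 1 mature and 1 progenitor gene. Against adult basal cells the 75 higher genes became 113 with unthinned sums, 47 with a prior of 10 CPM, 139 with those 20 cells, 113 against the run, 389 against the rest, and 118 with 2 or fewer mature genes at both stages. The 85 lower genes became 133, 376 with the 20 cells, 196 with 2 or fewer mature genes at puberty, 191 at both stages, and 129 against the run. The settings with 2 or fewer mature genes or without endothelial markers were chosen after seeing the data. Rn7sk, by which the run was chosen, reversed to a log2 ratio of 1.93 outside the run. The causes were not tested.

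No paired analysis was possible because no result comes from a test and the title numbers name cells, not pairs. With the cells of a stage handled as 1 sample, differences between animals, sorts and captures cannot be seen. At equal depth 1 read is worth 10 CPM, so genes under about 20 CPM are read in few cells and a missing read does not show a missing transcript.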

Other observations

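Among 2480 genes read in 30 to 70% of the 54 basal cells, those whose level followed the number of contractile genes most closely were Gem, a small GTPase (Spearman coefficient 0.47), Emid1 (0.44), Prkacb, a catalytic subunit of protein kinase A (0.44), Rnf2, a Polycomb ubiquitin ligase (0.44), and Esf1 (0.42), with Shisa5 (-0.46), Mlec (-0.45) and 2700049A03Rik (-0.42) in the opposite direction. These are descriptions over cells of 1 sample, taken as the largest of many, and the contractile count itself correlated with the genes read per cell at 0.23.

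Outside the marker genes the highest summed levels in the basal cells belonged to Actb (17908 CPM), Malat1 (17520 CPM), Sdc4 (8374 CPM), Canx (6880 CPM), Eef1a1 (5991 CPM), Septin2 (5518 CPM), Mt1 (4831 CPM) and Set (4731 CPM). Sdc4, a syndecan of cell adhesion, was read in all 54 cells, from 50 to 41910 CPM, and was also at 12458 CPM in the other pubertal cells.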
